A study of Mus musculus with 32 samples.

Results

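Translation initiation factors were described here as every probe of the array whose platform gene symbol begins with Eif followed by a digit. The rule used gene names only and no measured value. It gave 71 probes for 47 genes, of 25697 probes and 16593 gene symbols on the array. Total RNA of gastrocnemius muscle and of hippocampus was hybridised to 32 single-channel Illumina bead arrays, 16 for each tissue. All mice were female C57BL/6J and 23 months old. The groups were AICAR for 3 days, AICAR for 7 days, AICAR for 14 days and saline for 3 days, each with 4 arrays in muscle and 4 in hippocampus. AICAR, a nucleoside that cells convert into an activator of the energy sensor AMPK, was injected into the abdomen at 500 mg/kg/day in saline. Every group, saline included, was killed 33 days after its last injection and perfused with saline. The saline group is thus the only control, and it matches the 3-day course in length but not the longer ones. The labels name no individual mice, so it is not known which arrays share an animal, and the p-values measure only the spread between these samples.

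Initiation factors bring the small ribosomal subunit, the initiator tRNA and the capped mRNA together and release the complex at the start codon. eIF2 carries the initiator tRNA as a GTP-bound complex, eIF2B recharges eIF2 with GTP, and eIF2 kinases block that recharging under stress. eIF3 is a large scaffold on the small subunit, while the eIF4 proteins recognise the cap and unwind the leader. The eIF4E-binding proteins hold back the cap-binding factor until the kinase mTORC1 phosphorylates them, a step that AMPK opposes. Much of this control acts on proteins, which the arrays do not measure. In whole tissue, fewer cells of a type and less RNA per cell cannot be told apart.

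Of the 47 genes, 37 had a promoter in the RefSeq table (build GRCm38.p6), with 49 entries that each run from 250 bases before to 50 bases after a gene start. The promoters of 4 genes are shown because the results turn on them: Eif3k rose in both tissues, Eif1b rose in hippocampus, the 2 probes of Eif2b1 were called in opposite directions there, and Eif4ebp2 differed by one of the widest margins between the tissues. Capitals mark matches, on either strand, to 5 searched motifs: the GC box GGGCGG, the ETS motif CCGGAAG, the cAMP response element TGACGTCA, the YY1 motif AAGATGGC and the E-box CACGTG. None of the marked matches overlap.
Eif3k, chr7:28981839-28982138, minus strand: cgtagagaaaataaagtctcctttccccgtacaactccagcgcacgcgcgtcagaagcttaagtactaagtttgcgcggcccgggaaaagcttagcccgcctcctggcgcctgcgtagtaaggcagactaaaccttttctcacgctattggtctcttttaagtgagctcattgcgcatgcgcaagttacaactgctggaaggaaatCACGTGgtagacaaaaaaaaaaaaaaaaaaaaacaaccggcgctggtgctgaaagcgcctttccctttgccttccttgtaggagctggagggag
Eif1b, chr9:120492356-120492655, plus strand: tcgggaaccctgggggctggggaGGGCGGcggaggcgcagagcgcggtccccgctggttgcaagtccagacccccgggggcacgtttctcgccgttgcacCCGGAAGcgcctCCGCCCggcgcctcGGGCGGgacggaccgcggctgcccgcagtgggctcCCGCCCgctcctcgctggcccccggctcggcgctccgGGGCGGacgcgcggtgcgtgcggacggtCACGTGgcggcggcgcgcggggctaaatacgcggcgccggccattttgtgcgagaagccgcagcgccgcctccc
Eif2b1, chr5:124579082-124579381, minus strand: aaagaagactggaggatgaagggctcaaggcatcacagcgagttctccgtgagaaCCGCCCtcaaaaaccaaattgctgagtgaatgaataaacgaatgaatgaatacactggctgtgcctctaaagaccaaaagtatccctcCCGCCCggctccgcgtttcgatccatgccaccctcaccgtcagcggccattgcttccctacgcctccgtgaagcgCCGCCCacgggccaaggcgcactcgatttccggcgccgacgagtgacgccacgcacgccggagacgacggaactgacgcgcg
Eif4ebp2, chr10:61452620-61452919, minus strand: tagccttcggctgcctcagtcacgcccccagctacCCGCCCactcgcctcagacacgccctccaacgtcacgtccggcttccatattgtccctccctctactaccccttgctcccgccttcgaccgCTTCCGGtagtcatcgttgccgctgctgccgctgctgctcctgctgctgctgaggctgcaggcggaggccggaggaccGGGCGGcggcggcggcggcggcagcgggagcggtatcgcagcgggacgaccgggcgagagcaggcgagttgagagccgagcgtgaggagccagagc

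The promoter of Eif1b held 5 GC boxes, 1 ETS motif and 1 E-box, and that of Eif2b1 held 3 GC boxes alone. The promoter of Eif3k, with 49.7% G and C against 78.3% for Eif1b, held 1 E-box and no GC box. Among the 49 initiation factor promoters the GC box was found in 73.5%, against 35.7% of all 32851 promoters of the table. The ETS motif was found in 36.7% of them, against 8.9% of all promoters, the E-box in 22.4%, against 7.2%, and the YY1 motif in 10.2%, against 2.7%. The cAMP response element was in 0 of the 49 promoters and in 1.8% of all. These are letter matches and show no binding.

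The labelled tissues carried their markers. All 7 muscle fibre genes were detected on every muscle array, while in every hippocampal group 2 of the 7 were detected on all arrays and Ckm, Myh4, Mylpf and Tnnt3 on none. Of 7 neuronal genes, 5 were detected on every hippocampal array, while Snap25 and Nefl were detected on none, and 1 of the 7 was detected on every muscle array. The arrays fell into 2 sets before any comparison of genes. The first principal component (44.9% of variance for muscle, 36.0% for hippocampus) put 7-day and 14-day AICAR on one side and 3-day AICAR and saline on the other. Mean background intensity followed the same line, with group means of 147.4 to 164.1 units for 7-day and 14-day AICAR and 117.6 to 129.0 units for 3-day AICAR and saline. Samples were numbered treatment by treatment in consecutive blocks of 8, so treatment and any handling in such blocks cannot be told apart.

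Initiation factor probes were well represented in both tissues. In muscle 58 of 71 probes for 38 genes were detected (detection p below 0.05) on at least 4 of 16 arrays and were tested, or 81.7%, against 50.5% of all probes. In hippocampus 56 probes for 37 genes were tested, or 78.9%, against 53.2% of all probes. The probes tested in neither tissue were those of Eif1ax, Eif2ak4, Eif2s3y, Eif3e, Eif3m, Eif4e1b, Eif4ebp3, Eif5a2 and Eif5b, with 1 of the probes of Eif3a and of Eif4e2. A probe below background may miss its transcript, so these genes are given no level. Eif3h and a further probe of Eif3a were tested in muscle only. Eif4g1 and Eif2s1, which encode the eIF4F scaffold and the alpha subunit of eIF2, had 0 probes under their symbols among those used and were not analysed here.

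Without AICAR, most initiation factor probes differed between the tissues, as did most probes of the array. Of the 58 probes, 37 were higher and 13 lower in saline muscle than in saline hippocampus at an adjusted p below 0.05, which is 86.2% called, against a background of 81.1% of all 15321 probes (43% higher, 38.1% lower). The 37 include dim probes of Eif3a and Eif3h that passed the detection filter in muscle alone. The median log2 difference was 0.49 over the initiation factor probes and 0.08 over all probes. These levels come from a normalization over all 32 arrays, and scaling to the array median instead gave 48 higher and 4 lower. The higher group was led by the eIF4E-binding proteins and Eif4e3, and the lower group by Eif3d and the helicase side of eIF4F.

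Eif4ebp1 encodes an mTORC1-controlled repressor of the cap-binding factor. It stood at log2 intensities of 10.74, 11.005, 10.89 and 10.997 in saline muscle, against 6.47, 5.89, 6.60 and 6.74 in saline hippocampus. No array of either tissue came near the other, and the log2 difference was 4.48 ± 0.15 (SE, 22.4-fold; adjusted p 3.34e-22). Eif4ebp2, a close paralogue best known from the brain, stood at 11.999, 12.05, 12.05 and 12.23 in saline muscle, against 7.89, 7.72, 7.70 and 7.78 in saline hippocampus. Its log2 difference was 4.31 ± 0.08 (adjusted p 1.86e-28), so both repressor transcripts were higher in muscle on these probes. Of the 4 probes for the eIF4E-binding class, 3 were higher in muscle and 0 lower, while 43% of all probes were higher and 38.1% lower. The third was a probe of Eif4enif1, which encodes the transporter 4E-T (ILMN_2956153, 0.50 ± 0.08), whose other probe differed by 0.03 ± 0.10 (adjusted p 0.776).

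Transcripts of the eIF4E family were higher in muscle on 5 of 6 probes, while 43% of all probes were higher. All 3 probes of Eif4e3, a cap-binding relative of eIF4E, were higher there, by 2.98 ± 0.14, 2.64 ± 0.09 and 2.54 ± 0.08. Eif4e itself averaged 7.14 ± 0.16 in saline muscle and 5.85 ± 0.34 in saline hippocampus (SD, n = 4 each), a log2 difference of 1.29 ± 0.17 (adjusted p 8.04e-08). For Eif4e2, which encodes the cap-binding repressor 4EHP, 1 probe was higher in muscle at 1.20 ± 0.09 and the other lower at -0.69 ± 0.08, so that the direction rests on the probe. The RNA helicases ran the other way. Both probes of Eif4a1 (-1.0 ± 0.07 and -0.75 ± 0.10) and both of Eif4a2 (-0.90 ± 0.08 and -0.79 ± 0.10) were lower in muscle, as was Eif4a3, a helicase of the exon junction complex, at -0.64 ± 0.09. Under median scaling the first probe of Eif4a1 kept its sign at -0.26 with an adjusted p of 0.0524, and the first of Eif4a2 was at -0.04 with an adjusted p of 0.780. Of the helicase cofactors, Eif4h was lower in muscle at -1.23 ± 0.06 and Eif4b was higher at 2.06 ± 0.18.

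Of all probes, 43% were higher in muscle and 38.1% lower. In the eIF2 and eIF2B class, 9 of 10 probes were higher in muscle and 0 were lower. Eif2s2, the beta subunit of eIF2, was higher by 2.62 ± 0.08 and 2.14 ± 0.09 on its 2 probes. Eif2b1, the alpha subunit of eIF2B, was higher by 1.98 ± 0.11 and 0.91 ± 0.09, and the 3 probes of Eif2b5, its catalytic subunit, by 0.89 to 1.08. Of the kinases that phosphorylate eIF2, Eif2ak1 (HRI) was higher in muscle at 0.63 ± 0.12, while Eif2ak2 (PKR) was lower at -0.65 ± 0.09 and Eif2ak3 (PERK) at -0.43 ± 0.20 (adjusted p 0.0486). In eIF3, 10 of 15 probes were higher and 2 lower. Eif3j1, a loosely bound subunit, was higher in muscle at 2.34 ± 0.15 and the core subunit Eif3a at 1.64 ± 0.09 on its brighter probe, while Eif3d, a subunit that can bind caps, was lower at -1.27 ± 0.07. Eif2d, an alternative carrier of tRNA, was detected on no saline hippocampal array with probe ILMN_1259832 and was at least 2.11-fold higher in muscle (adjusted p 1.30e-10). The dim probes ILMN_2845039 (Eif3a) and ILMN_1215703 (Eif3h), likewise detected on no saline hippocampal array, passed the detection filter in muscle alone. Their lower bounds were 1.05-fold and 1.02-fold, and their calls, both among the 10 eIF3 probes counted higher, are no support for a difference. For a probe not well above background on every array of a group, such bounds set the brighter mean against the lowest signal detected.

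**Figure D1:**
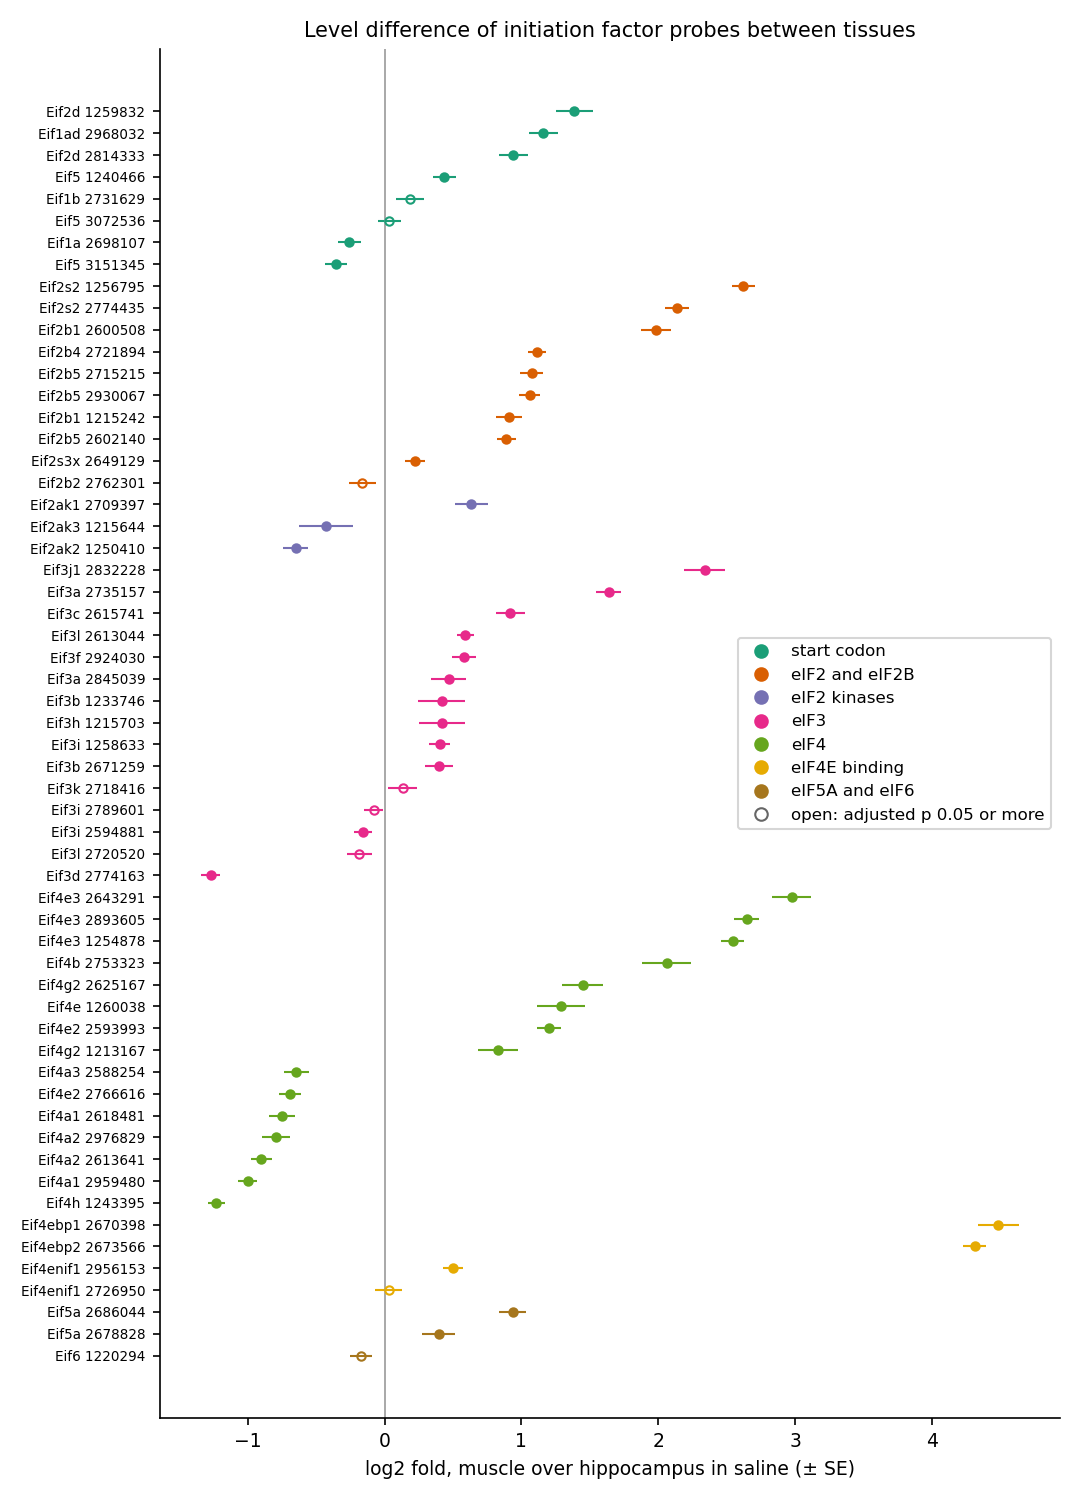
Log2 difference in level, saline muscle over saline hippocampus, with its standard error, for the 58 tested probes (rows, gene and probe number) grouped by complex in colour. Filled points have an adjusted p below 0.05. The Eif4ebp1 and Eif4ebp2 points lie beyond 4, and the Eif4a1, Eif4a2, Eif4h and Eif3d points lie below 0.

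After 3 days of AICAR, no initiation factor probe passed the test in either tissue. In muscle 0 of 58 probes were called, as were 0% of all 12977 probes, with 12 initiation factor probes and 1434 of all probes at an unadjusted p below 0.05. In hippocampus 0 of 56 were called, as were 0% of all 13659 probes, with 2 and 823 at an unadjusted p below 0.05. The lowest p-values in muscle belonged to Eif4a2 (ILMN_2976829, -0.32 ± 0.08, adjusted p 0.212), Eif4g2 (ILMN_1213167, -0.56 ± 0.15, adjusted p 0.213) and Eif3d (0.30 ± 0.08, adjusted p 0.213). In hippocampus they belonged to Eif2s3x, the gamma subunit of eIF2 (-0.18 ± 0.06), Eif4e3 (ILMN_2643291, -0.37 ± 0.13) and Eif5 (ILMN_3151345, -0.17 ± 0.08), with adjusted p-values of 0.699 or more.

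After the 7-day and 14-day courses, initiation factor transcripts in hippocampus differed from saline in both directions. At 7 days 8 probes were higher and 6 lower than in saline, or 25% of 56, against a background of 27.1% of all probes (13.1% higher, 14% lower). At 14 days 10 were higher and 9 lower, or 33.9%, against 29.5% of all probes (13.7% higher, 15.9% lower). The share of initiation factors called was thus close to that of the array at either duration. The rises were led by probe ILMN_2600508 of Eif2b1, whose other probe was lower, and by Eif1b, Eif3k and Eif3c, and the falls by Eif2ak2, Eif6, Eif2b2, Eif1ad and Eif3l. The median change was -0.01 at 7 days and -0.05 at 14 days, against -0.03 and -0.04 over all probes. Both courses were set against the same saline arrays, and 13 probes were called in the same direction at both. Scaling to the array median gave 16 higher and 0 lower at 7 days and 11 higher and 0 lower at 14 days, so the falls depend on the scaling.

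Eif1b, a paralogue of the scanning factor eIF1, was higher at either duration. It stood at 11.77, 11.72, 11.82 and 11.995 on the 7-day arrays and 11.77, 11.72, 11.66 and 11.83 on the 14-day arrays, against 11.24, 11.01, 10.94 and 10.94 in saline. The groups did not overlap, which held for 30.3% of all hippocampal probes at 7 days and 31.8% at 14 days. The log2 changes of Eif1b were 0.80 ± 0.10 (adjusted p 5.65e-05) and 0.72 ± 0.10 (adjusted p 0.000115). After 3 days its mean was 11.08, against 11.03 in saline. Eif1ad, which shares a domain with eIF1A, was lower at -0.31 ± 0.10 and -0.32 ± 0.10, and under median scaling at -0.01 and -0.14 with adjusted p-values of 0.972 and 0.553. The other probes of the start codon class (Eif1a, Eif2d and Eif5) were not called in hippocampus.

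In the eIF2B complex the probes of a single gene disagreed. Eif2b1 with probe ILMN_2600508 stood at 8.002, 8.26, 8.42 and 8.25 at 7 days and 8.12, 8.17, 8.33 and 8.08 at 14 days, against 7.37, 7.36, 7.32 and 7.33 in saline. The log2 changes were 0.89 ± 0.10 (1.85-fold, adjusted p 4.48e-05) and 0.83 ± 0.10 (adjusted p 6.65e-05). With probe ILMN_1215242 the same gene stood at 8.84, 8.81, 8.59 and 8.99 and at 8.85, 8.73, 8.81 and 8.82, against 9.03, 9.20, 9.09 and 9.09. Here the changes were -0.30 ± 0.09 and -0.31 ± 0.09, so no direction can be given for the gene. Among the 15 initiation factor genes with several tested probes in hippocampus, Eif2b1 was the only one with probes called in opposite directions at 7 or 14 days. Over all 2432 genes with several tested probes, this held for 124 at 7 days and 144 at 14 days. Eif2b2, the beta subunit, was lower on its only probe, at -0.33 ± 0.10 at either duration, and under median scaling was at -0.02 and -0.18, not called. Eif2s2 (ILMN_1256795) was higher by 0.18 ± 0.06 and 0.17 ± 0.06, while its other probe was not called. Eif2b4 was lower at 14 days alone among the tests against saline (-0.19 ± 0.07, adjusted p 0.0473).

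Of the eIF2 kinases, Eif2ak2, which responds to double-stranded RNA, was lower in hippocampus. It stood at 7.83, 7.77, 7.64 and 7.50 at 7 days and 7.62, 7.97, 7.68 and 7.63 at 14 days, against 8.01, 8.06, 8.22 and 8.06 in saline. Every treated array lay below every saline array. The changes were -0.40 ± 0.10 (adjusted p 0.00770) and -0.36 ± 0.10 (adjusted p 0.0123), and under median scaling -0.10 and -0.18 without a call. Eif2ak3 was at 0.01 ± 0.24 and -0.19 ± 0.24, and Eif2ak1 at 0.27 ± 0.10 and 0.27 ± 0.10 (adjusted p 0.0605 and 0.0537).

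Of 13 eIF3 probes, 4 were higher and 1 lower at 7 days, 3 were higher and 2 lower at 14 days, and 8 were not called in each test. The share called was 38.5% at either duration, against 27.1% of all probes at 7 days and 29.5% at 14 days. Eif3k, a peripheral subunit, stood at 8.78, 8.87, 8.81 and 8.99 at 7 days and 8.78, 8.88, 8.79 and 9.13 at 14 days, against 8.22, 8.46, 8.32 and 8.12 in saline. It was higher by 0.58 ± 0.09 (1.5-fold, adjusted p 0.000507) and 0.61 ± 0.09 (adjusted p 0.000303), with no overlap. Eif3l, the subunit that Eif3k binds, was lower with probe ILMN_2720520, at -0.30 ± 0.09 and -0.36 ± 0.09, and was not called with its other probe (-0.11 ± 0.06 and -0.07 ± 0.06). The fall of the first probe was not called under median scaling (-0.10 and -0.32). The core subunit Eif3c was higher by 0.51 ± 0.10 and 0.67 ± 0.10. Eif3f, which in muscle is known as a target of the ubiquitin ligase atrogin-1, was higher in hippocampus by 0.37 ± 0.09 and 0.40 ± 0.09. Eif3a (ILMN_2735157) was higher at 7 days (0.30 ± 0.10), and Eif3d was lower at 14 days (-0.21 ± 0.07).

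Among the eIF4 probes, 0 of 15 were called at 7 days, against 27.1% of all probes, with 4 at an unadjusted p below 0.05. At 14 days 3 eIF4 probes were higher and 0 lower, or 20%, against 29.5% of all probes called. Those 3 were Eif4b at 0.50 ± 0.18, Eif4a1 (ILMN_2618481) at 0.29 ± 0.10 and Eif4e3 (ILMN_1254878) at 0.23 ± 0.08, with adjusted p-values of 0.0358 to 0.0474. The Eif4b call was lost without 14-day replicate 1, 2 or 4, without saline replicate 2, 3 or 4, or with no filter on dim probes (adjusted p up to 0.131). Eif4e was at 0.38 and 0.26 at 7 and 14 days and not called (adjusted p 0.219 and 0.416). Under median scaling its 7-day change passed the test. Eif4ebp1 stood at 7.10, 6.93, 6.94 and 7.00 at 7 days and 7.10, 6.84, 7.18 and 6.98 at 14 days, against 6.63, 6.06, 6.75 and 6.88 in saline. It was higher by 0.41 ± 0.14 (adjusted p 0.0378) and 0.45 ± 0.14 (adjusted p 0.0251), and at 14 days its lowest array lay below the highest saline array. The 7-day call was lost without any single 7-day array, without saline replicate 1 or 2, or with no filter on dim probes (adjusted p up to 0.0927). The 14-day call was lost without 14-day replicate 1 or 3 or saline replicate 2 (adjusted p up to 0.0720). Eif4ebp2 was at -0.08 ± 0.08 and -0.19 ± 0.08 (adjusted p 0.492 and 0.0839), and Eif4enif1 (ILMN_2726950) was lower at 14 days (-0.31 ± 0.10). Eif6, which keeps free large subunits from joining small ones, stood at 10.05, 10.19, 9.88 and 10.16 at 7 days and 10.15, 10.11, 10.03 and 10.13 at 14 days, against 10.56, 10.30, 10.54 and 10.47 in saline. It was lower at either duration without overlap, at -0.40 ± 0.08 and -0.36 ± 0.08 (adjusted p 0.00228 and 0.00367), though not under median scaling (-0.13 and -0.26, adjusted p 0.523 and 0.203). Eif5a, the hypusine-bearing elongation factor, was not called on either probe.

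Some markers of other cells were called in hippocampus, while 27.5% of all genes were called at 7 days and 30.1% at 14 days. The log2 of the summed intensity of 4 astrocyte genes was 13.71 to 13.78 at 7 days and 13.63 to 13.73 at 14 days, against 13.52 to 13.61 in saline, with 2 of 4 genes higher in either test. The value for 5 choroid plexus genes was 12.004 to 15.21 and 14.93 to 15.27, against 11.37 to 14.94, with all 5 detected on every array only in the 14-day group. Of the 5, 1 was called higher at either duration. The value for 3 red blood cell genes was 9.36 to 11.90 and 8.75 to 12.48, against 11.64 to 12.38, with 0 of 3 called. Of 3 microglia genes, 1 was higher at either duration. At either duration 0 of 5 tested neuronal genes and 0 of 3 oligodendrocyte genes were called. The part of these cells in the initiation factor changes was not tested.

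**Figure D2:**
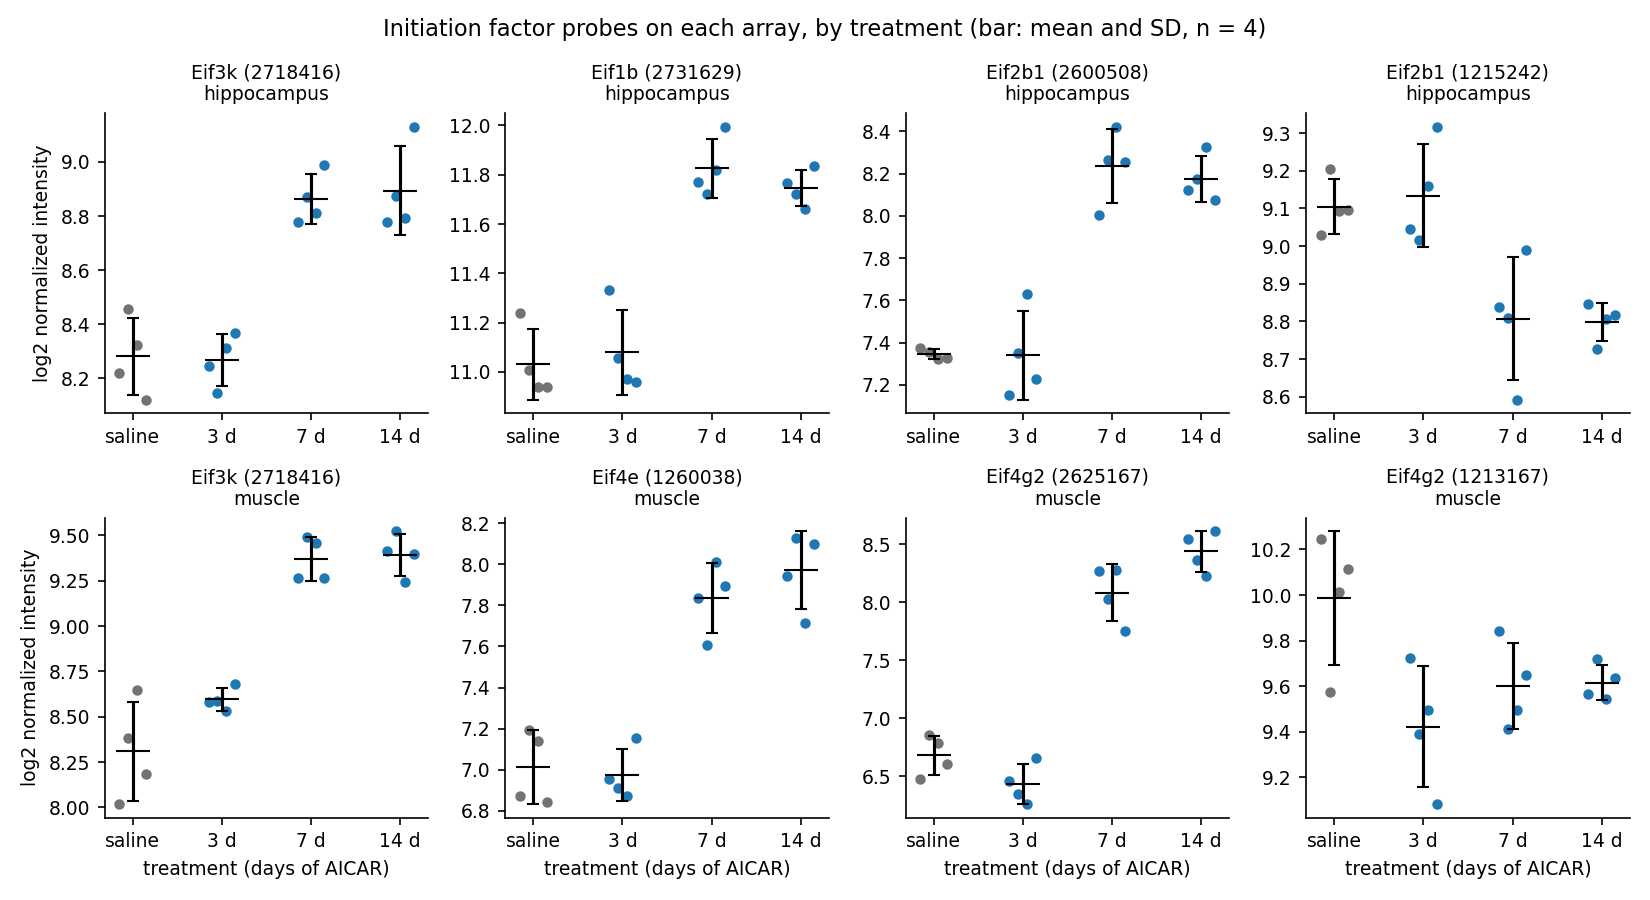
Log2 normalized intensity of 7 initiation factor probes on each array (points), with mean and SD of the 4 arrays of a group, across saline and 3, 7 and 14 days of AICAR. Upper panels are hippocampus and lower panels muscle, each with its own scale. The Eif3k points of the 7-day and 14-day groups lie above every saline and 3-day point in both tissues, and the 2 probes of Eif2b1 in hippocampus lie on opposite sides of saline. Of the Eif4g2 probes in muscle, ILMN_2625167 lies above saline and ILMN_1213167 was not called.

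In muscle after the longer courses, a small number of probes were higher than in saline by large amounts, and others were lower by small ones. At 7 days 8 probes were higher and 9 lower than in saline, or 29.3% of 58, against a background of 19.7% of all probes (10.8% higher, 8.86% lower). At 14 days 8 were higher and 7 lower, or 25.9%, against 18.8% of all probes (11% higher, 7.81% lower). The 8 rises at each duration include a dim probe of Eif3a that entered the test through the treated groups. The rises reached 1.40 and 1.76 on the log2 scale, whereas the lowest called change was -0.39. The rises included 1 probe of Eif4g2, Eif3k, Eif3h, Eif4e and 1 probe of Eif2d. The median change was -0.11 at either duration, against -0.08 over all probes, and 11 probes were called in the same direction at both durations. Scaling to the array median gave 7 higher and 26 lower at 7 days and 7 higher and 28 lower at 14 days, while the median of all probes moved to -0.24 and -0.25.

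Eif4g2 encodes DAP5, an eIF4G relative without the eIF4E-binding region. With probe ILMN_2625167 it stood at 8.27, 8.03, 8.27 and 7.75 at 7 days and 8.54, 8.37, 8.23 and 8.61 at 14 days, against 6.48, 6.85, 6.78 and 6.60 in saline. The changes were 1.40 ± 0.13 (2.64-fold, adjusted p 5.85e-07) and 1.76 ± 0.13 (3.38-fold, adjusted p 4.34e-08). With probe ILMN_1213167 it stood at 9.84, 9.41, 9.50 and 9.65 and at 9.57, 9.72, 9.55 and 9.64, against 10.25, 9.57, 10.01 and 10.12. The changes on that probe were -0.39 ± 0.15 and -0.37 ± 0.15 (adjusted p 0.0735 and 0.0869), so only one of the probes of the gene rose. The 3-day mean was 6.43 on the first probe, against 6.68 in saline, and 9.42 on the second, against 9.99 in saline.

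Eif4e, the cap-binding protein, stood at 7.84, 7.61, 8.01 and 7.89 at 7 days and 7.94, 8.13, 7.72 and 8.10 at 14 days, against 6.87, 7.19, 7.14 and 6.84 in saline. It rose by 0.83 ± 0.12 (adjusted p 6.91e-05) and 0.96 ± 0.12 (adjusted p 1.17e-05), without overlap (at each duration 23% of all muscle probes lay apart from saline). Its relatives were not called higher: Eif4e3 (ILMN_2893605) was lower, at -0.33 ± 0.08 at either duration, with its other 2 probes between -0.12 and -0.18 and not called, and Eif4e2 (ILMN_2766616) was lower at 14 days (-0.31 ± 0.08). Both probes of Eif4a2 were lower at 7 days (-0.24 ± 0.08 and -0.27 ± 0.08, adjusted p 0.0491 and 0.0234) and not called at 14 days. Eif4a1 was called on neither probe, at 0.15 ± 0.09 and -0.21 ± 0.08 at 7 days. None of the 4 eIF4E-binding probes was called at either duration, with 0 and 2 at an unadjusted p below 0.05. Of all probes, 19.7% were called at 7 days and 18.8% at 14 days. Eif4ebp1 was at -0.02 ± 0.16 and 0.08 ± 0.16, and Eif4ebp2 at -0.17 ± 0.09 and -0.24 ± 0.09 (adjusted p 0.189 and 0.0627), and under median scaling Eif4ebp2 passed the test at -0.37 and -0.47.

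Of 15 eIF3 probes, 3 were higher and 0 lower at 7 days, and 4 were higher and 1 lower at 14 days. The shares called were 20% and 33.3%, against 19.7% and 18.8% of all probes. Eif3k stood at 9.27, 9.49, 9.46 and 9.26 at 7 days and 9.41, 9.52, 9.24 and 9.39 at 14 days, against 8.02, 8.38, 8.65 and 8.18 in saline. It rose by 1.06 ± 0.11 (2.09-fold, adjusted p 3.15e-06) and 1.08 ± 0.11 (2.12-fold, adjusted p 2.23e-06). Eif3h, a regulatory subunit, rose by 0.93 ± 0.18 and 1.01 ± 0.18, and lay near background in saline, where it was detected on 3 of 4 arrays. The dim Eif3a probe ILMN_2845039 stood at a mean of 6.42 at 7 days and 6.26 at 14 days, against 5.37 in saline. It was detected on all 4 arrays of either treated group, on 2 of 4 saline arrays and on 0 of 4 3-day arrays. It thus entered the test through the groups where it was high, so its called rise is no support for a change. It is nonetheless among the eIF3 probes counted higher at each duration. The brighter Eif3a probe was at 0.15 ± 0.08 and 0.16 ± 0.08 and was not called. Eif3i gave opposite calls at 14 days, at 0.34 ± 0.08 with ILMN_2789601 and -0.32 ± 0.09 with ILMN_1258633, and a further probe was not called.

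In the start codon class, 1 of 8 muscle probes was higher and 4 lower at 7 days, and 1 was higher and 3 lower at 14 days. The shares called were 62.5% and 50%, against 19.7% and 18.8% of all probes. The median change of the class was -0.24 and -0.23, and -0.13 at 3 days, where 0 of 8 were called and 3 had an unadjusted p below 0.05. Between 14 and 3 days 1 probe was higher and 0 lower, so the falls were not called between these courses. Eif5, which makes eIF2 hydrolyse its GTP, was lower on 2 of 3 probes, at -0.28 ± 0.09 and -0.28 ± 0.09 at 7 days and -0.32 ± 0.09 and -0.30 ± 0.09 at 14 days. The 7-day call of ILMN_3072536 was lost in 8 of 15 alternatives. The Eif5 probe ILMN_1240466 stood at 10.04, 10.18, 9.91 and 10.30 at 7 days and 10.17, 10.10, 10.04 and 9.95 at 14 days, against 10.44, 10.29, 10.32 and 10.49 in saline. On that probe the 3-day mean, 10.05, was as low as the 14-day mean, 10.06. Eif1a, a scanning factor, was lower at -0.30 ± 0.07 and -0.24 ± 0.07. Its 3-day mean was 8.38, against 8.55 in saline and 8.31 at 14 days. Eif2d rose with probe ILMN_1259832 (0.77 ± 0.13 and 0.93 ± 0.13) and was lower at 7 days with ILMN_2814333 (-0.33 ± 0.09). Eif2d at 7 days and Eif3i at 14 days were the genes with probes called in opposite directions, among 16 with several tested probes. Over all 2331 genes with several tested probes in muscle, this held for 70 at 7 days and 60 at 14 days.

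Eif2ak3, the eIF2 kinase of the endoplasmic reticulum, stood at 6.71, 6.56, 6.68 and 6.505 at 7 days and 6.57, 6.74, 6.36 and 6.37 at 14 days, against 6.07, 6.08, 6.02 and 5.50 in saline. It rose by 0.69 ± 0.14 (adjusted p 0.00154) and 0.59 ± 0.14 (adjusted p 0.00543), with every treated array above every saline array. Eif2ak2 was lower at 14 days (-0.39 ± 0.09, adjusted p 0.00524) and not called at 7 days (-0.23 ± 0.09, adjusted p 0.0805). In eIF2 and eIF2B, Eif2b2 (-0.31 ± 0.09) and Eif2b5 (ILMN_2602140, -0.21 ± 0.07) were lower at 7 days, and 0 of 10 probes were called at 14 days, with 3 at an unadjusted p below 0.05. The shares called were 20% and 0%, against 19.7% and 18.8% of all probes. Eif5a (ILMN_2686044) was higher at 7 days (0.35 ± 0.09, adjusted p 0.0134) but not under median scaling (0.13, adjusted p 0.458). At 14 days it was at 0.25 ± 0.09 (adjusted p 0.0712), and its other probe was at -0.21 ± 0.12 and -0.15 ± 0.12. Eif6 was at -0.06 ± 0.08 and -0.04 ± 0.08 (adjusted p 0.642 and 0.785).

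Among marker lists in muscle, the log2 of the summed intensity of the 7 fibre genes was 18.19 to 18.29 at 7 days and 18.20 to 18.24 at 14 days, against 18.14 to 18.23 in saline, with 1 of 7 called higher at either duration. The value for 3 microglia and macrophage genes was 6.86 to 7.22 and 7.19 to 7.30, against 7.28 to 7.84, with 1 of 3 called lower at 7 days and C1qa detected on no 7-day array. For 2 endothelial genes it was 9.62 to 9.80 and 9.47 to 9.69, against 9.80 to 9.97, with 1 of 2 called lower at either duration. For 4 connective tissue genes it was 14.11 to 14.23 and 14.08 to 14.30, against 13.93 to 14.15, with 2 of 4 called higher at either duration. For 3 red blood cell genes it was 10.63 to 12.81 and 8.83 to 11.98, against 8.61 to 12.13, with 1 called higher at 7 days. Of all genes in muscle, 18.8% were called at 7 days and 17.9% at 14 days. The part of such cells in the initiation factor changes was not tested.

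**Figure D3:**
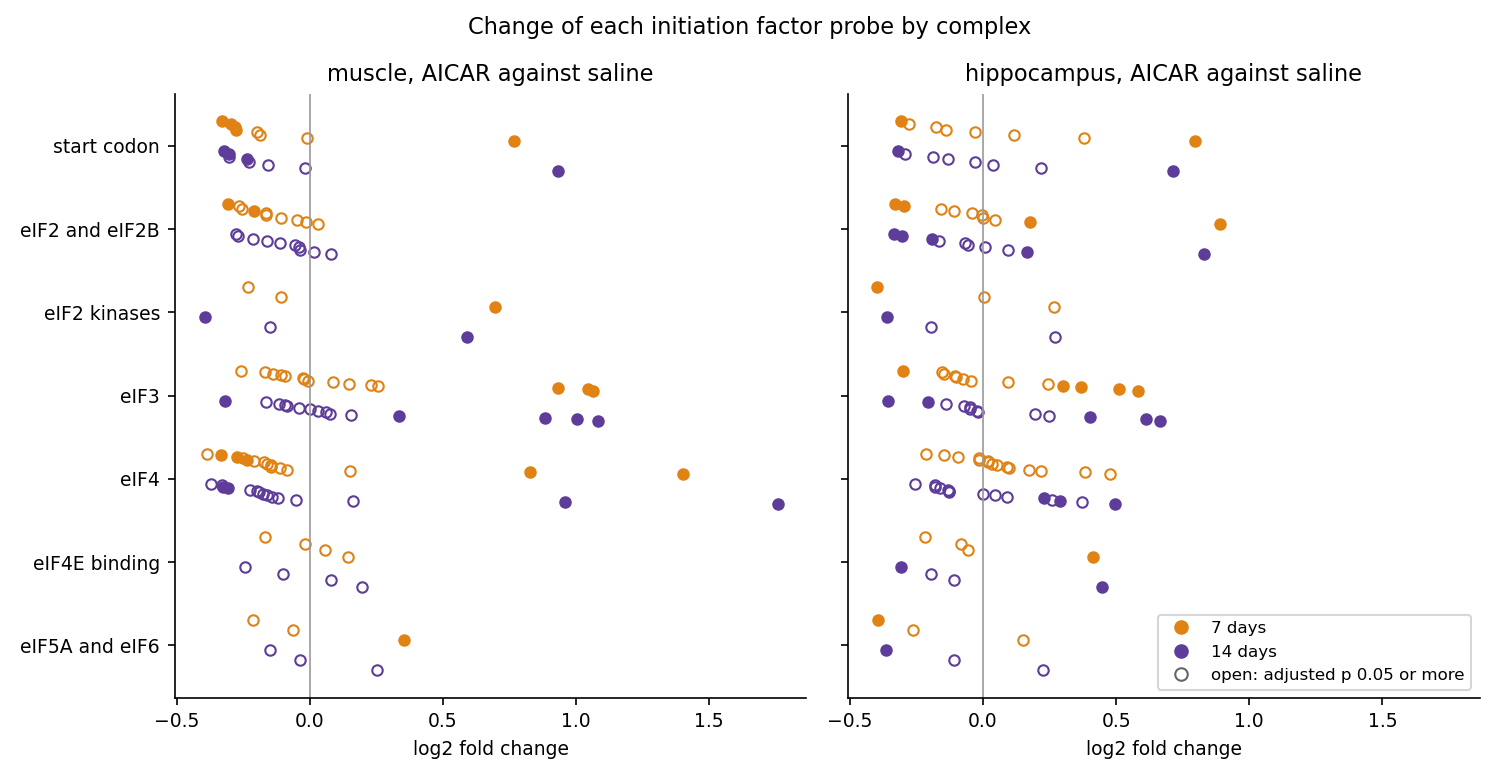
Log2 fold change against saline of each tested initiation factor probe at 7 days (orange) and 14 days (purple), by complex, in muscle (left) and hippocampus (right). Filled points have an adjusted p below 0.05. In muscle the called rises reach 1.76 and the called falls lie between -0.21 and -0.39.

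The durations were also set against each other. Between 14 and 7 days, 0 of 58 probes were called in muscle and 0 of 56 in hippocampus, as were 0% of all probes in either tissue, with 1 initiation factor probe at an unadjusted p below 0.05 in each. In muscle that probe was Eif4g2 ILMN_2625167, at 0.36 ± 0.13 (adjusted p 0.920). Between 14 and 3 days, a comparison that uses no saline array, 8 probes were higher and 8 lower in muscle, or 27.6%, against 19.2% of all probes (11% higher, 8.16% lower). In hippocampus 10 were higher and 10 lower, or 35.7%, against 27% of all probes (13% higher, 14% lower). In muscle Eif4g2 (ILMN_2625167) was higher by 2.01 ± 0.13, Eif4e by 1.0 ± 0.12 and Eif3k by 0.80 ± 0.11. The dim Eif3a probe, detected on no 3-day array, was at least 1.85-fold higher and is among the 8 called higher. It entered the test through the groups where it was high, so this call too is no support for a change. In hippocampus Eif2b1 (ILMN_2600508) was higher by 0.83 ± 0.10, Eif1b by 0.67 ± 0.10, Eif3k by 0.63 ± 0.09 and Eif3c by 0.62 ± 0.10. Eif2ak1 (0.39 ± 0.10) and Eif5a (ILMN_2678828, 0.32 ± 0.11) were among the probes that passed this test in hippocampus and not the one against saline. Median scaling gave 13 higher and 0 lower there.

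Few initiation factors were called in both tissues. At 7 days the probes of Eif3k (higher) and Eif2b2 (lower) were called in both, 2 of the 15 muscle calls and 2 of the 14 hippocampal calls among the 56 probes tested in both tissues. These are 13.3% and 14.3%, while over all 11315 probes the same-direction calls were 26.6% of muscle calls and 17.6% of hippocampal calls. At 14 days Eif3k (higher) and Eif2ak2 (lower) were called in both, 15.4% of muscle calls and 10.5% of hippocampal calls, against 29.1% and 16.8% over all probes. No probe was called in opposite directions in the 2 tissues. Across probes the changes of muscle and hippocampus correlated at r = 0.30 (7 days) and 0.21 (14 days) over 56 initiation factor probes, against 0.23 and 0.27 over all probes. The points share the arrays of each group and are not independent.

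A direct test of the tissue difference, muscle change minus hippocampal change, called 14 of 56 probes at either duration. At 7 days 6 were higher and 8 lower, or 25%, against a background of 16.7% of all probes (7% higher, 9.74% lower). At 14 days 7 were higher and 7 lower, or 25%, against 16.5% (7.09% higher, 9.4% lower). Median scaling gave 1 higher and 37 lower at 7 days and 2 higher and 22 lower at 14 days. Eif4g2 (ILMN_2625167) differed the most, by 1.38 ± 0.23 and 1.94 ± 0.23, having risen in muscle and being at 0.02 ± 0.19 and -0.18 ± 0.19 in hippocampus, where it was detected on 3 of 4 arrays at 7 days and 1 of 4 at 14 days. Its other probe differed the opposite way, by -0.60 ± 0.21 and -0.74 ± 0.21. Eif3k rose more in muscle, by 0.48 ± 0.15 and 0.47 ± 0.15, though under median scaling its difference was -0.04 and 0.10 and not called. Eif5a (ILMN_2686044) differed by 0.61 ± 0.13 at 7 days and Eif2d (ILMN_1259832) by 0.71 ± 0.22 at 14 days. Eif4e, called higher than saline in muscle alone, did not pass this test at either duration. Eif3l (ILMN_2720520) differed by 0.39 ± 0.12 and 0.36 ± 0.12, and under median scaling by -0.03 and 0.10 without a call. The changes of Eif2b1 (ILMN_2600508, -0.86 ± 0.15 and -0.75 ± 0.15), Eif1b (-0.81 ± 0.14 and -0.73 ± 0.14) and Eif4b (-0.73 ± 0.25 and -0.83 ± 0.25) were more positive in hippocampus. The Eif4b difference was lost in 13 of 23 alternatives at 7 days, the replicate block among them, and in 4 of 23 at 14 days. The 7-day difference of Eif4g2 ILMN_1213167 was lost in 11 of 23, and the 14-day differences of Eif3l and Eif3k in 13 and 8 of 23. Eif1b in muscle stayed between 11.25 and 11.64 on the 7-day and 14-day arrays, against 11.29 to 11.70 in saline.

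**Figure D4:**
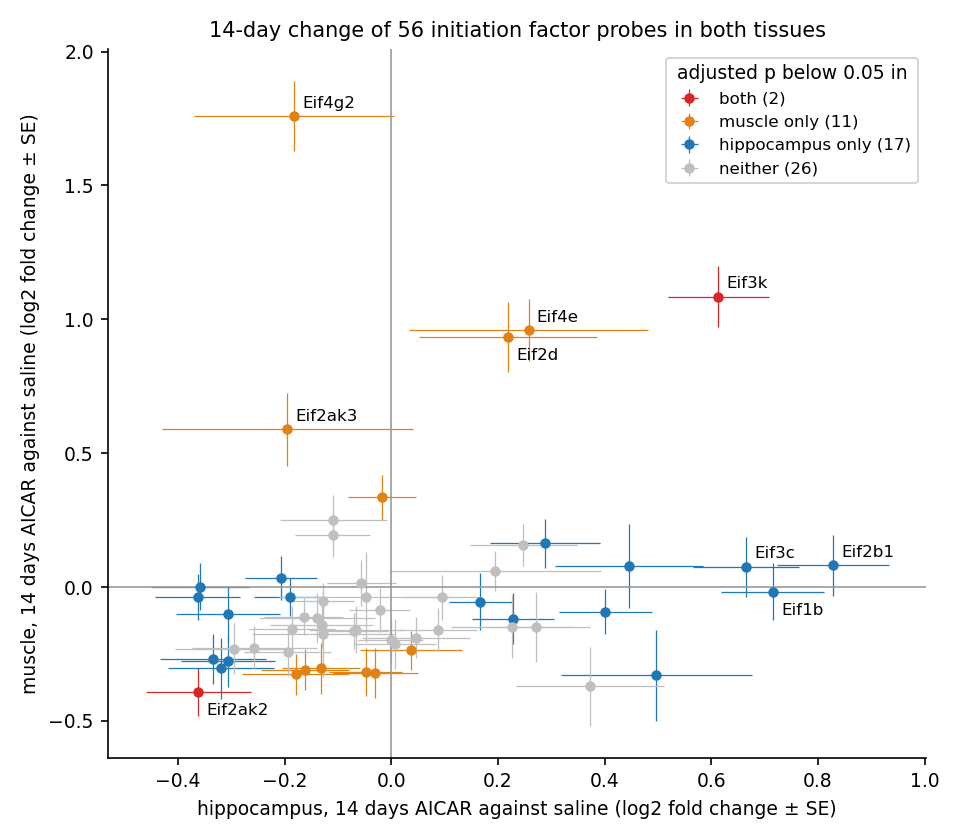
Log2 fold change at 14 days of AICAR against saline in muscle (vertical) and hippocampus (horizontal), with standard errors, for the 56 initiation factor probes tested in both tissues. Colours give the tissue in which the adjusted p was below 0.05. Eif3k (0.61 in hippocampus, 1.08 in muscle) and Eif2ak2 (-0.36 and -0.39) are called in both.

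Genes that act beside the initiation factors were counted by gene, taking 1 probe for each. Among 17 tested partners at the poly(A) tail, the cap and the start site, 6 were higher and 1 lower in muscle at 7 days, and 6 higher and 2 lower at 14 days, while 18.8% and 17.9% of all genes were called in either direction. Ddx3x, an RNA helicase, was higher by 1.53 ± 0.12 and 1.64 ± 0.12, Paip2, which pulls the poly(A)-binding protein off the tail, by 1.36 ± 0.13 and 1.53 ± 0.13, and Abce1, which splits ribosomes for reuse, by 1.42 ± 0.16 and 1.36 ± 0.16. In hippocampus 2 of 15 such genes were higher and 1 lower at 7 days, and 1 higher and 0 lower at 14 days, while 27.5% and 30.1% of all genes were called. Bzw1, a mimic of eIF5, was higher by 0.71 ± 0.09 at either duration.

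On the mTORC1 axis, 3 of 24 genes were higher and 1 lower in muscle at 7 and at 14 days, and 3 of 22 were higher and 4 lower in hippocampus at each. These shares were near those of all genes, 18.8% and 17.9% in muscle and 27.5% and 30.1% in hippocampus. Mtor itself was lower in hippocampus (-0.46 ± 0.08 and -0.54 ± 0.08) and at 14 days in muscle (-0.46 ± 0.12). Lamtor2, part of the lysosomal anchor of mTORC1, was higher in muscle by 0.94 ± 0.08 and 1.0 ± 0.08, as was the GTPase gene Rraga (0.90 ± 0.14 and 0.78 ± 0.14). In hippocampus Sesn1, whose product restrains mTORC1, was higher by 0.66 ± 0.09 and 0.73 ± 0.09. Lamtor2 was higher there too at 7 days (0.67 ± 0.12), and Lamtor1 at 14 days (0.60 ± 0.10).

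Of 17 targets of the integrated stress response, which eIF2 kinases switch on, and eIF2 phosphatase subunits, 0 were higher and 1 lower in muscle at 7 days, and 1 higher and 0 lower at 14 days, while 18.8% and 17.9% of all genes were called. The 7-day gene was Ppp1r15a, the inducible eIF2 phosphatase subunit (-0.56 ± 0.16), and the 14-day gene was Atf5 (0.46 ± 0.14). In hippocampus 3 of 19 were higher and 0 lower at 7 days, and 4 higher and 3 lower at 14 days, while 27.5% and 30.1% of all genes were called. There the serine synthesis gene Phgdh was higher at either duration (0.36 ± 0.11 and 0.39 ± 0.11) and Ddit3, which encodes CHOP, was lower at 14 days (-0.61 ± 0.17). Atf5 was higher at 14 days in hippocampus as well (0.45 ± 0.11). Of the elongation and termination factors, 1 gene was higher and 1 lower in each of the 4 tests, among 10 tested in muscle and 11 in hippocampus. Eef1b2, an exchange factor for eEF1A, was higher in muscle by 0.52 ± 0.10 and 0.58 ± 0.10 and in hippocampus at 14 days by 0.35 ± 0.10. At 3 days 0 genes of these 4 lists were called in either tissue, as were 0% of all genes.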

How the data were processed

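Scanner intensities per probe, not normalized, and a detection p-value for each were deposited by the authors, exported with BeadStudio 1.6.0 per the submitters' processing notes. The authors also deposited 1 score per probe and array, z-scored log2 intensity by its values, which served only as an alternative. Probes were named from the platform table: 23978 had 1 symbol, 0 several and 1719 none, and all 71 initiation factor probes matched RefSeq by gene identifier.

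With limma 3.58.1 in R 4.3.3, background was corrected by normexp from the detection p-values (offset 16), arrays were quantile normalized within each tissue, and log2 was taken. In each tissue, a probe entered the test where its detection p was under 0.05 for 4 or more of 16 arrays, and was fitted by lmFit and eBayes, all groups of a tissue sharing 1 variance, with Benjamini-Hochberg adjustment over all tested probes. Muscle and hippocampus were compared in saline after normalization over all 32 arrays. The tissue difference was the interaction over probes tested in both tissues, with no animal term. By rule, values are given for up to 5 called probes with the largest rise and 5 with the largest fall in each comparison with saline (the 3 lowest p-values where fewer than 3 are called), up to 4 each way between tissues, a fixed panel of cap, eIF2 kinase and eIF5A/eIF6 genes, further probes of these genes, and up to 3 called genes of each related list. Every other called probe that is named was chosen after its values were seen. Members, gene lists and this rule were chosen with earlier results of these data known. The scripts were tested on simulated data. The number of arrays, 4 in a group, limits the precision. Replicate numbers did not pair arrays.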

Additional observations from a re-analysis of the deposited data

Results flagged for a closer look

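Among 172 groups of 4 arrays examined for a single array far from the other 3, 9 were marked, where chance gives 8.6. In hippocampus these were Eif3l (ILMN_2720520) on 7-day replicate 3, at 11.34 against 11.07 to 11.12 on the others, and Eif4b on 3-day replicate 3, at 6.16 against 6.67 to 6.77. In muscle Eif4a2 (ILMN_2976829) stood at 14.03 on 14-day replicate 1, against 13.74 to 13.77. Eif3h stood at 6.18 on 7-day replicate 2, against 6.31 to 6.33. Eif1a stood at 8.16 on 14-day replicate 4, against 8.34 to 8.38, and at 8.47 on 3-day replicate 3, against 8.34 to 8.36. Eif2d (ILMN_1259832) stood at 7.64 on 14-day replicate 2, against 7.14 to 7.21, Eif2ak3 at 5.50 on saline replicate 4, against 6.02 to 6.08, and Eif5a (ILMN_2686044) at 11.72 on 3-day replicate 4, against 11.58 to 11.60.

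The change with AICAR differed between muscle and hippocampus, by the interaction test, for 16 named results. They were named because that same test called them, up to 4 each way at each duration, so their number follows from the rule. Those of Eif3k and Eif3l at 7 days reversed sign under median scaling, and others were lost under alternatives, as given above. At 7 days muscle minus hippocampus was 1.38 for Eif4g2 (ILMN_2625167), 0.61 for Eif5a (ILMN_2686044), 0.48 for Eif3k and 0.39 for Eif3l (ILMN_2720520). It was -0.86 for Eif2b1 (ILMN_2600508), -0.81 for Eif1b, -0.73 for Eif4b and -0.60 for Eif4g2 (ILMN_1213167). At 14 days it was 1.94 for Eif4g2 (ILMN_2625167), 0.71 for Eif2d (ILMN_1259832), 0.47 for Eif3k and 0.36 for Eif3l. It was -0.83 for Eif4b, -0.75 for Eif2b1, -0.74 for Eif4g2 (ILMN_1213167) and -0.73 for Eif1b.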

How the results depend on the processing

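Of 1724 values of 107 named results under the alternatives, 1571 kept a call in its direction or stayed without a call. A further 135 lost the call, 16 gained it and 2 reversed the sign of a called result. Sign changes of results without a call in either fit were counted as kept, so direction was not kept in all 1571. The 2 were the 7-day tissue differences of Eif3k (-0.0401) and Eif3l (-0.0277) under median scaling. Under that scaling the median change of all probes was -0.24 (7 days) and -0.25 (14 days) in muscle, 0.18 and 0.07 in hippocampus, and -0.46 and -0.34 for the tissue difference. It called 33 muscle probes at 7 days and 35 (7 higher, 28 lower) at 14 days, 11 hippocampal probes at 14 days and 13 between 14 and 3 days, and 38 and 24 tissue differences. Without background correction 24 muscle probes (9 higher, 15 lower) were called at 14 days. The authors' scores gave 1 muscle probe at 3 days, 25 at 14 days and 22 tissue differences at 14 days. The cause was not tested.

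Leaving out 1 array at a time gave 7 to 13 calls in hippocampus at 7 days, 11 to 16 at 14 days and 14 to 20 between 14 and 3 days. In muscle it gave 11 to 16, 11 to 16 and 12 to 16. It gave 46 to 50 calls between tissues in saline, and 7 to 12 and 8 to 13 tissue differences. The counts moved by over 1.5 times for hippocampus at 7 days without saline replicate 2 (7) or 7-day replicates 2 or 3 (9 each), and at 14 days without 14-day replicate 2 (12) or saline replicate 2 (11). In muscle at 7 days this held without saline replicate 4 (11). For the 7-day tissue difference it held without hippocampal 7-day replicate 1 (7) or 2 (9), or muscle saline replicate 1 (9) or 4 (7). For the 14-day one it held without muscle 14-day replicate 2 (8), or muscle saline replicate 1 (8) or 4 (9). Fewer arrays were fitted in each.

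With the replicate number as a block, 14, 16 and 17 hippocampal probes were called at 7 days, 14 days and between 14 and 3 days, against 13, 14 and 16 in muscle, 50 between tissues and 12 and 15 tissue differences. Same-numbered arrays did not deviate together (mean r -0.01 in muscle, -0.05 in hippocampus), and 2 of 16 arrays in each tissue correlated best with their own number.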
